A study of Mus musculus with 2 samples.

Results

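The genes followed here were 10 that handle the amino acid arginine and its products or are read as signs of macrophage activation, namely *Arg1*, *Arg2*, *Nos2*, *Odc1*, *Slc7a2*, *Ass1*, *Acod1*, *Mrc1*, *Retnla* and *Chil3*. They were found by symbol among the 33696 genes of the count matrices, and all 10 had a row. The set was chosen by levels and detection of these genes in earlier results from these libraries, so every value below is a description and none is a test.

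Arginine enters cells through cationic amino acid transporters such as the one encoded by *Slc7a2*. Arginase 1 (*Arg1*, in the cytosol) and arginase 2 (*Arg2*, in mitochondria) split it into urea and ornithine, and ornithine decarboxylase (*Odc1*) turns ornithine into putrescine, from which polyamines are made. The inducible nitric oxide synthase (*Nos2*) uses the same arginine to make nitric oxide and citrulline, and argininosuccinate synthase (*Ass1*) starts the rebuilding of arginine from citrulline. Among mouse macrophage markers, *Arg1*, *Retnla* (resistin-like alpha), *Chil3* (the chitinase-like lectin Ym1) and *Mrc1* (the mannose receptor CD206) are the textbook genes of cells exposed to IL-4 or IL-13. *Nos2* and *Acod1* (the enzyme that makes itaconate) are those of cells exposed to interferon gamma or endotoxin.

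The data were 2 droplet-based single-cell RNA-seq libraries of suprarenal abdominal aorta from C57BL/6J mice, which the study's methods describe as male and 5 months old at the start. The Control mice received normal saline, and the AngII+HS mice received angiotensin II together with high salt in the drinking water, and both were sampled at day 28. By the design text each library pooled 5 mice, whereas the extraction protocol names 1 control mouse and 2 treated mice. There was 1 library per condition, so no difference between them has a replicate check, and every 95% interval below (exact Poisson for counts, exact conditional binomial for ratios, Clopper-Pearson for shares of cells) covers counting error only.

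After filtering and doublet removal, 10269 Control cells (median 7274 UMIs, or unique molecular identifiers, each marking 1 captured RNA molecule) and 19734 AngII+HS cells (median 3065.5 UMIs) remained. Doublets removed were 9.03% (Control) and 19.6% (AngII+HS) of the filtered cells, and the median mitochondrial share was 3.57% and 1.06%. The barcode list recorded with each library had as many entries as the other library's matrix, and the lists shared 67 barcodes (0.585% of the shorter one). Each matrix was assigned to the sample that holds its record, and an exchange of the matrices would reverse every direction below. A level is given as CPM, the UMIs of a gene summed over the cells of a class and scaled by all UMIs of those cells. T and B cells, which should lack most of these genes, give the level that free RNA in the droplets leaves behind. It is a level per UMI, so where depth differs between classes an equal CPM is not an equal UMI count per cell.

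Macrophages numbered 439 in the Control and 4339 in the AngII+HS library, monocyte-like cells 41 and 142, neutrophils 98 and 4659, fibroblasts 2607 and 4715, mural cells (VSMCs and pericytes) 5632 and 1109, and vascular endothelial cells (VECs) 838 and 1204. Median depth was close in the macrophages of the libraries, at 3972 and 4034 UMIs, while neutrophils had 2740.5 and 1266. The macrophages split into clusters that differed between the libraries. Control cells lay mostly in a resident-like cluster (197 cells, led by *Fcna*, *Lyve1* and *Folr2*) and in a cluster led by *Oasl1* and *Ccl5* (192 cells), where 454 and 621 AngII+HS cells also lay. A cluster led by *Cxcl3* and *Fn1* (1343 cells) and another led by *Ppbp* and *Rnf128* (497 cells) held AngII+HS cells and 0 Control cells. The remaining AngII+HS macrophages were 816 cells of a cluster led by *Irf7* and *Ly6c2*, 492 lipid-associated cells (*Gpnmb*, *Trem2*, *Lpl*), 91 cycling cells and 25 cells led by *Marco* and *Cd209b*. The 10 genes were kept out of the genes used for clustering, although *Arg1*, *Chil3* and *Ass1* still ranked among the leading genes of a cluster.

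The *Cxcl3*/*Fn1* and *Ppbp*/*Rnf128* clusters carried part of the macrophage marker list at low levels. The complement gene *C1qa* was at 171 and 378 CPM in them, against 97.2 CPM in the monocyte-like cells and 2062 to 3535 CPM in the other named or gene-led AngII+HS macrophage clusters of at least 50 cells. *Cd68* lay at 239 and 363 CPM in them, *Adgre1* at 236 and 188 CPM, and *Csf1r* at 226 and 205 CPM. The defining platelet genes *Gp9* and *Gp1bb* had 1 and 0 UMIs in all these clusters together, although *Ppbp* and *Pf4* are also platelet genes. In the clustering of all cells, a cluster led by *Arg1*, *Ccl24* and *Cxcl3* scored highest for the monocyte list, at 2.005. It held 40 Control and 2065 AngII+HS cells. The macrophage and monocyte-like clusters were then scored beside their own mean, for the monocyte list and the macrophage subset lists only. The general macrophage list was not scored there. Among the lists scored, the monocyte list was highest for the *Cxcl3*/*Fn1* cluster, at 0.436 on the log2 scale, under the naming minimum of 1. For the *Ppbp*/*Rnf128* cluster the lipid-associated list was highest, at 0.594, also under the minimum. *Spp1*, of that list, was at 6267 CPM in it, 4508 CPM in *Cxcl3*/*Fn1* cells and 1537 CPM in the cluster named lipid-associated. The monocyte markers *Vcan* and *Plac8* were at 627 and 390 CPM in the *Cxcl3*/*Fn1* cluster and at 211 and 235 CPM in the *Ppbp*/*Rnf128* cluster. They were at 1180 and 2541 CPM in the monocyte-like cells and 11.7 and 38.5 CPM in the AngII+HS resident-like cells. *Ly6c2*, of the same list, was at only 34.2 and 28.3 CPM in the *Cxcl3*/*Fn1* and *Ppbp*/*Rnf128* clusters, against 323 CPM in the monocyte-like cells. The *Irf7*/*Ly6c2* cluster was at 350 CPM for *Ly6c2*, 612 CPM for *Plac8* and 83.7 CPM for *Vcan*. The *Cxcl3*/*Fn1* and *Ppbp*/*Rnf128* clusters are therefore called by their leading genes and counted among the macrophages. Without them the pooled log2 ratios given below become at least 4.72 for *Chil3*, 4.18 (3.05 to 5.63) for *Arg2*, 2.37 (1.98 to 2.80) for *Acod1*, -2.26 (-2.39 to -2.13) for *Retnla* and 2.34 (-0.24 to 7.69) for *Nos2*, with those of *Arg1* and *Mrc1* given beside their values.

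*Arg1* (chr10:24791118-24803817, GRCm39, minus strand) separated the macrophages of the libraries most plainly. No *Arg1* UMI was found in the Control macrophages, 0 of 439 cells, which, at 3 counts of the total, allows a share of cells with a UMI of up to 0.683% and does not limit the share of cells expressing the gene. The AngII+HS macrophages held 30645 *Arg1* UMIs, a level of 1611 CPM, and 1974 of 4339 cells (45.5%, 95% interval 44.0 to 47.0) had at least 1. With 3 counts allowed for the Control class, the log2 ratio was at least 9.94. Of all 32071 *Arg1* UMIs of the AngII+HS library, 95.6% were in macrophages. The Control library had 18 in all its cells, of which 10 were in the 5632 mural cells. Taken as 1 class, T and B cells were at 26.9 CPM in the AngII+HS library (6.16% of cells, median 2141 UMIs) and at 5.19 CPM in the Control library (2.16%, median 3788 UMIs).

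Within the AngII+HS macrophages, *Arg1* was unequal between clusters. The *Ppbp*/*Rnf128* cluster was at 4034 CPM (3935 to 4135), with a UMI in 83.3% of cells. The *Cxcl3*/*Fn1* cluster was at 3880.5 CPM (3830 to 3931), with a UMI in 91.8% of cells. These intervals do not overlap, although the levels differ little beside the step to the next class. Monocyte-like cells followed at 401 CPM (26.8% of cells) and the *Irf7*/*Ly6c2* cluster at 299.9 CPM (20.3%). Resident-like cells were at 71.5 CPM (58.4 to 86.6), above the T and B cell level. The lipid-associated cluster was at 37.2 CPM, the *Oasl1*/*Ccl5* cluster at 26.2 CPM and the cycling cluster at 20.7 CPM, at or close to that level in CPM. Their cells were deeper than T and B cells, with medians of 5190, 3516 and 9408 UMIs. A similar CPM is therefore more *Arg1* UMIs per cell, and whether these exceed free RNA was not tested. Without the *Cxcl3*/*Fn1* and *Ppbp*/*Rnf128* clusters the AngII+HS macrophages were at 125 CPM, and the log2 ratio was at least 6.25.

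**Figure D1:**
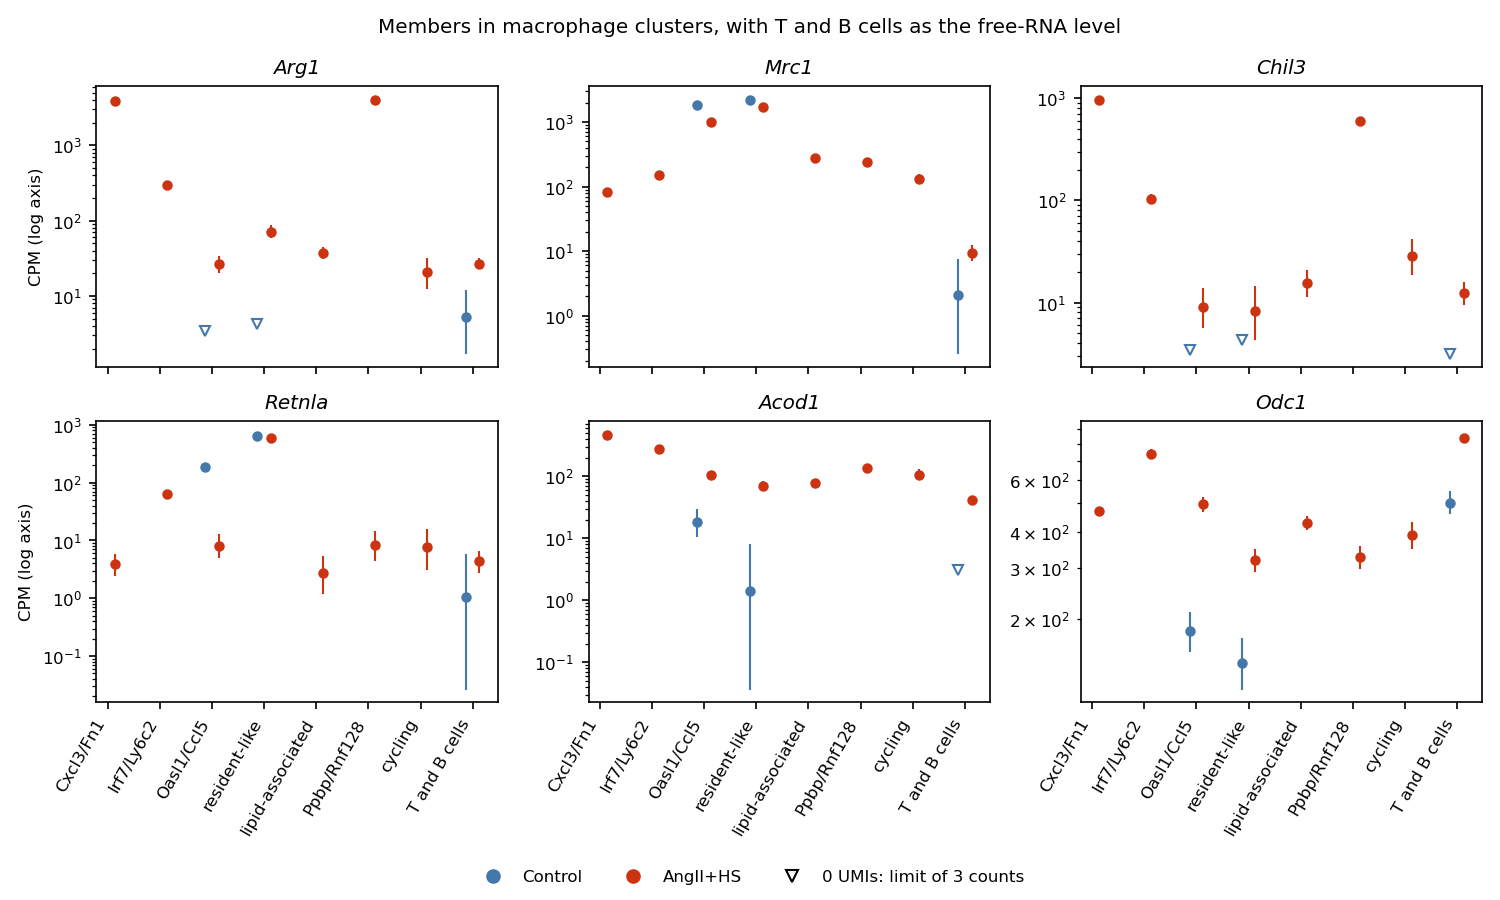
Level of 6 of the genes (CPM, log axis) in macrophage clusters of at least 50 cells and in T and B cells, with Control in blue and AngII+HS in red; bars are 95% Poisson intervals and open triangles mark 0 UMIs, drawn at the level that 3 counts would give. *Arg1* and *Chil3* are highest in the *Cxcl3*/*Fn1* and *Ppbp*/*Rnf128* clusters, whereas *Mrc1* and *Retnla* are highest in resident-like cells.

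*Mrc1* (chr2:14234151-14336926, plus strand) was lower in the AngII+HS macrophages. It was at 1827 CPM (3343 UMIs) in Control and at 379 CPM (7211 UMIs) in AngII+HS, a log2 ratio of -2.27 (-2.33 to -2.21), and 91.1% and 42.1% of the cells had a UMI. The AngII+HS T and B cells were at 9.50 CPM. Of all *Mrc1* UMIs, 94.9% (Control) and 92.8% (AngII+HS) were in macrophages.

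The gap was smaller inside the macrophage clusters of at least 50 cells in both libraries. Resident-like cells were at 2180.2 CPM in Control and 1694 CPM in AngII+HS, a log2 ratio of -0.36 (-0.46 to -0.27). The *Oasl1*/*Ccl5* cells were at 1808 and 984 CPM, a ratio of -0.88 (-0.97 to -0.79). Resident-like markers differed between the libraries inside these clusters too. *Lyve1* was at 498 CPM in Control and 50.3 CPM in AngII+HS *Oasl1*/*Ccl5* cells, and at 1066 and 302 CPM in resident-like cells. *Cd163* was at 594 and 64.9 CPM, and at 864 and 408 CPM. Whether the ratios compare like cells was not tested. The clusters rich in *Arg1* were low in *Mrc1*, with 82.1 CPM in *Cxcl3*/*Fn1* cells and 244 CPM in *Ppbp*/*Rnf128* cells. Without those clusters the pooled log2 ratio was -1.73 (-1.80 to -1.67). Outside macrophages, lymphatic endothelial cells, which are known to carry the mannose receptor, were at 24.3 CPM in Control and 71.5 CPM in AngII+HS, a log2 ratio of 1.56.

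*Retnla* (chr16:48662895-48664824, plus strand), a secreted protein of the resistin family, was found in few cells at high counts. It was at 469 CPM in Control and 61.3 CPM in AngII+HS macrophages, a log2 ratio of -2.94 (-3.06 to -2.81), in 15.5% and 2.79% of the cells. In resident-like cells, however, the levels were 629 and 585 CPM, a log2 ratio of -0.11 (-0.27 to 0.06). That interval covers 0, but it treats each UMI as independent and is too narrow where few cells hold many UMIs. The share of resident-like cells with a UMI was lower in AngII+HS, at 24.4% and 13.7%, with median depths of 3209 and 2855 UMIs. It is not compared at equal depth here. The level alone therefore does not show that *Retnla* was unchanged in these cells. In the *Oasl1*/*Ccl5* cluster the levels were 187 and 8.17 CPM, a log2 ratio of -4.52 (-5.29 to -3.83). Resident-like markers in that cluster also differed between the libraries, as given above. The 49 Control dendritic cells held 322 *Retnla* UMIs in 11 cells, and the AngII+HS dendritic cells were at 3.61 CPM. Of the 121 AngII+HS macrophages with *Retnla*, 72.7% also had *Mrc1*, and of the 68 such Control cells 85.3% did. *Retnla* has close relatives in the genome, such as *Retnlg*, and how reads common to them were counted is not given in the sources used here.

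*Chil3* (chr3:106054870-106074880, minus strand) had 0 UMIs in the Control macrophages and 7133 UMIs in the AngII+HS macrophages (375 CPM, 30.8% of cells), a log2 ratio of at least 7.84. The Control library nevertheless held *Chil3* in another class. Of its 397 *Chil3* UMIs, 378 were in 37 of the 41 monocyte-like cells. In the AngII+HS library the order was monocyte-like cells at 1284 CPM (63.4% of cells), *Cxcl3*/*Fn1* cells at 963 CPM (67.4%), neutrophils at 790 CPM (38.1%), *Ppbp*/*Rnf128* cells at 606 CPM (42.1%) and *Irf7*/*Ly6c2* cells at 104 CPM (18.3%). The T and B cell level was 12.3 CPM, and the resident-like, *Oasl1*/*Ccl5* and lipid-associated clusters were at 8.25 to 15.6 CPM, close to that in CPM. *Chil3* has a near-identical neighbour, *Chil4*, so its counts are uncertain where reads fit both.

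The promoters of these genes are shown because *Retnla* and *Mrc1* were lower and *Chil3* and *Acod1* higher in the pooled AngII+HS macrophages. The set of RefSeq promoters used here, on GRCm38.p6, held 6 of the 10 members. The 250 bases before the start are given 5′ to 3′ on the gene's strand, for *Retnla* chr16:48842359-48842608 (plus), *Mrc1* chr2:14229164-14229413 (plus), *Chil3* chr3:106167565-106167814 (minus) and *Acod1* chr14:103046762-103047011 (plus). Capitals mark matches to the letters searched on both strands, which were TATAAA, TTC and GAA with any 4 bases between them (STAT6-type), TTGCNNAA (C/EBP-type), TGANTCA (AP-1-type), GAAA repeated with any 2 bases between (IRF-type), CACGTG (E-box) and GAGGAAGT (PU.1-type).
Retnla: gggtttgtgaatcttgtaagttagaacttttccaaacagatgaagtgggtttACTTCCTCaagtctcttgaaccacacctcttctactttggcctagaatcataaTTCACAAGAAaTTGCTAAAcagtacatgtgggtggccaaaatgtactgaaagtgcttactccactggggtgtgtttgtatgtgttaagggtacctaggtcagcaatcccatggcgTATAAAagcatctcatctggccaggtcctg
Mrc1: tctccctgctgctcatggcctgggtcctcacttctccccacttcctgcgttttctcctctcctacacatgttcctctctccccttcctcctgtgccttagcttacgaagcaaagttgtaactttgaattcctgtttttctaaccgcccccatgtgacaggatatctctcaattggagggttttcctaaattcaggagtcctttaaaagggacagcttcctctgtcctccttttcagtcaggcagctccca
Chil3: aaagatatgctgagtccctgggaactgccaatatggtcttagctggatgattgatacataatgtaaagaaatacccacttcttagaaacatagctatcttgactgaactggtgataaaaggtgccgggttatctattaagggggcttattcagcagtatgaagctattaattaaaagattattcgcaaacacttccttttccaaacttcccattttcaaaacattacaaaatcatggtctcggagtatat
Acod1: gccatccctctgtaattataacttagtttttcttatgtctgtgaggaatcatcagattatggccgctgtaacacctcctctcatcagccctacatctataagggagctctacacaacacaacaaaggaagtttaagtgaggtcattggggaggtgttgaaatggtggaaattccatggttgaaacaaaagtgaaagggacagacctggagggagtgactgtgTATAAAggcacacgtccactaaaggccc

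The *Retnla* window held a STAT6-type match at -145 to -136, a C/EBP-type match at -134 to -127 that follows it after 1 base, a PU.1-type match on the other strand at -198 to -191 and a TATA box at -30 to -25. Among all 32851 promoters of the same length, these letters occurred in 5.85%, 9.56%, 2.44% and 12.4%. *Acod1* held a TATA box at -28 to -23, and the windows of *Mrc1* and *Chil3* held none of the motifs searched. A match is a stretch of letters and was not tested as a binding site.

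*Acod1* (chr14:103284413-103294009, plus strand) was a neutrophil gene first. Neutrophils held 71.0% (Control) and 82.7% (AngII+HS) of its UMIs, at 4519 CPM (96.9% of cells) and 5259 CPM (91.0% of cells), a log2 ratio of 0.22 (0.14 to 0.30). In neutrophils 4 of 9 measured members were at least 2-fold higher in AngII+HS (background, 27.5% of 9979 genes) and 1 lower (12.3%), counted with 0.5 UMIs added. At the 3-count bound *Mrc1*, with 0 Control UMIs, is not shown to be past 2-fold (0.31), which leaves 3. The one with over 3 Control UMIs among all these was *Chil3*, at 48.0 and 790 CPM (4.04, 3.27 to 4.95). All 98 Control neutrophils fell into a circulating-like cluster without AngII+HS cells, so these ratios compare different clusters. The AngII+HS clusters of at least 200 cells were at 4944 CPM (led by *Bcl2a1d* and *Bcl2a1a*), 5510 CPM (led by *Retnlg* and *Stfa2l1*) and 6778 CPM (interferon genes). In macrophages *Acod1* was at 29.0 CPM in Control and 246 CPM in AngII+HS, a log2 ratio of 3.09 (2.70 to 3.5). The AngII+HS T and B cells were at 41.0 CPM, where the Control ones held 0 UMIs. Among those above that level were monocyte-like cells at 763 CPM, *Cxcl3*/*Fn1* cells at 463 CPM and *Irf7*/*Ly6c2* cells at 275 CPM. The *Oasl1*/*Ccl5* cells, found in both libraries, went from 18.3 to 106 CPM, a log2 ratio of 2.54 (1.81 to 3.37). Resident-like cells went from 1.44 to 70.1 CPM, and the AngII+HS value is less than 2-fold above T and B cells.

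*Arg2* (chr12:79177524-79203075, plus strand) followed a similar order. It was at 668 CPM in Control and 924 CPM in AngII+HS neutrophils, a log2 ratio of 0.47 (0.25 to 0.69). Monocyte-like cells of the AngII+HS library were at 239 CPM, *Cxcl3*/*Fn1* cells at 231 CPM, *Ppbp*/*Rnf128* cells at 203 CPM and *Irf7*/*Ly6c2* cells at 115 CPM. The intervals of the first pair in that order overlap (202 to 280 and 219 to 244 CPM). In pooled macrophages the level was 3.28 CPM (6 UMIs) in Control and 125 CPM in AngII+HS, a log2 ratio of 5.25 (4.12 to 6.70). Of the 4659 AngII+HS neutrophils, 91.0% had *Acod1*, 62.9% had *Arg2* and 2723 cells had both. Shares this high give many such cells by themselves, so no link is read from the count.

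The Control monocyte-like cells, although only 41, held *Acod1*, *Arg2* and *Chil3*. They held 402 *Acod1* UMIs in 33 cells, 45 *Arg2* UMIs in 26 cells and the 378 *Chil3* UMIs given above. They held 0 *Arg1* UMIs and 0 *Mrc1* UMIs, and 0 of 41 cells allows, at 3 counts, a share of cells with a UMI of up to 7.32%.

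**Figure D2:**
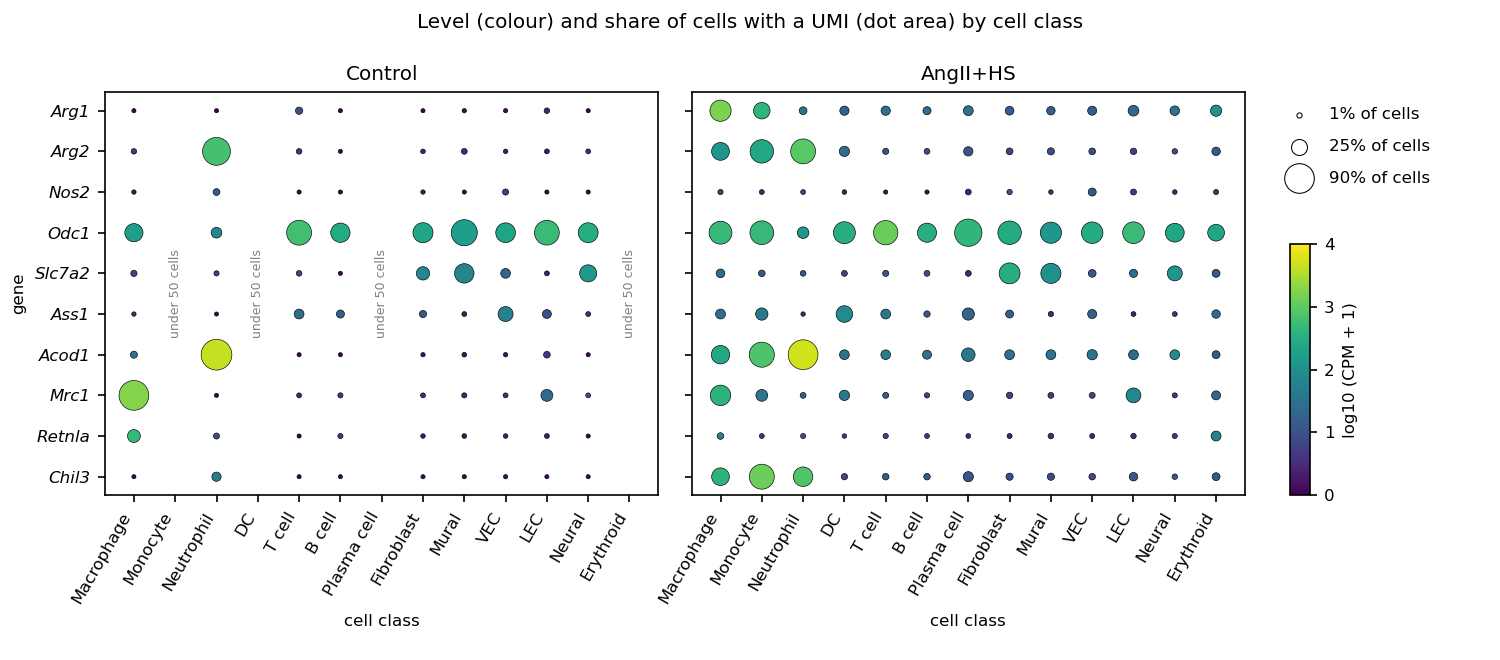
Level (colour, log10 of CPM + 1) and share of cells with a UMI (dot area) of the 10 genes in each cell class, in the Control and AngII+HS libraries; classes under 50 cells are left blank. *Acod1* and *Arg2* are highest in neutrophils, *Arg1* and *Mrc1* in macrophages, *Slc7a2* in fibroblasts and *Odc1* in T cells of the AngII+HS library.

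*Odc1* (chr12:17594383-17601507, plus strand) was found in every class. T cells led, at 623 CPM in Control and 1231 CPM in AngII+HS, a log2 ratio of 0.98 (0.83 to 1.14). Macrophages were at 177 and 493 CPM, a log2 ratio of 1.48 (1.32 to 1.65). This was the member whose difference was close to the same in each macrophage cluster of at least 50 cells in both libraries. It was 1.18 in resident-like and 1.45 in *Oasl1*/*Ccl5* cells. The *Irf7*/*Ly6c2* cluster had the highest macrophage level, 741 CPM. T and B cells express *Odc1* themselves, so they give no free-RNA level for it. The mouse genome holds *Odc1* pseudogenes, and reads that fit them are uncertain.

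*Slc7a2* (chr8:41315431-41375345, plus strand) was in the macrophages at 5.47 CPM (10 UMIs) in Control and 24.8 CPM (472 UMIs) in AngII+HS, a log2 ratio of 2.18 (1.29 to 3.25). The *Cxcl3*/*Fn1* cluster was at 45.2 CPM, against 8.71 CPM in T and B cells. *Ass1* (chr2:31352181-31410862, plus strand) was at 2.19 CPM (4 UMIs) and 27.5 CPM (524 UMIs), a log2 ratio of 3.66 (2.29 to 5.54), at the same AngII+HS level as T and B cells (19.7 and 27.5 CPM). T cells alone were at 39.6 CPM in AngII+HS, so, as with *Odc1*, they give no free-RNA level for it. The lowest large classes of that library were neutrophils at 1.77 CPM and mural cells at 1.83 CPM, and in Control mural cells at 0.735 CPM. Within the macrophages the *Irf7*/*Ly6c2* cluster was at 82.1 CPM (73.2 to 91.7, 25.9% of cells), close to dendritic cells at 79.8 CPM (69.6 to 91.0), while *Cxcl3*/*Fn1* cells were at 11.5 CPM and resident-like cells at 3.44 CPM. *Nos2* (chr11:78811613-78851080, plus strand) was the rarest member. It had 1 UMI in Control and 82 UMIs in AngII+HS macrophages (0.547 and 4.31 CPM), a log2 ratio of 2.98 with an interval from 0.46 to 8.30. The *Cxcl3*/*Fn1* cluster was at 8.12 CPM, in 25 of its cells, against 0.396 CPM in T and B cells.

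Counted over the pooled macrophages, 8 members were at least 2-fold higher in AngII+HS (background, 13.5% of the 13643 genes with at least 20 UMIs) and 2 were at least 2-fold lower (background, 19.8%). All 10 members had 20 UMIs. The median log2 ratio was 2.74 over the members and -0.11 over all genes. Since the members were chosen with these values known, the counts are given beside the background and nothing is read from them.

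**Figure D3:**
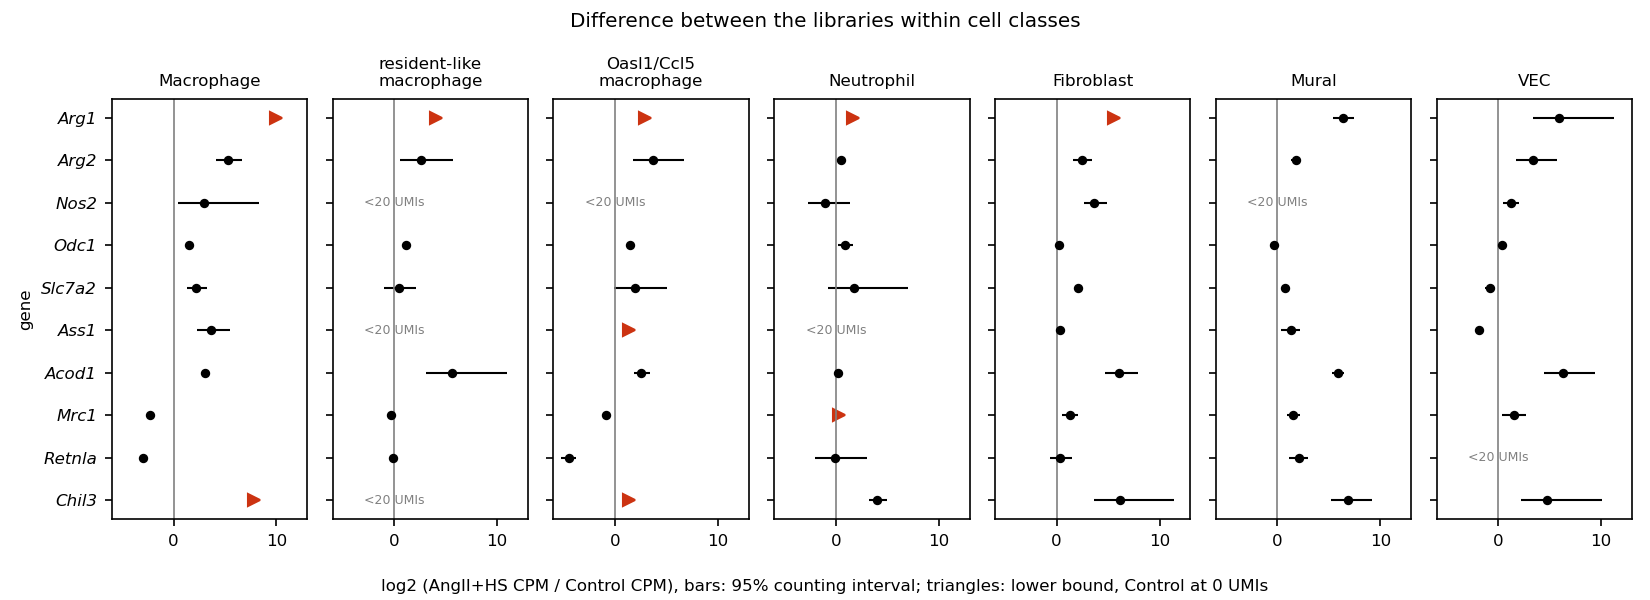
Log2 ratio of AngII+HS over Control CPM (x axis) for the 10 genes in 7 cell classes or clusters, with 95% counting intervals; triangles are lower bounds where Control had 0 UMIs, and genes under 20 UMIs are left out. *Mrc1* and *Retnla* lie left of 0 in pooled macrophages, near 0 in resident-like cells and at -0.88 and -4.52 in *Oasl1*/*Ccl5* cells. *Slc7a2* and *Ass1* lie left of 0 in VECs. For *Arg1*, *Acod1* and *Chil3* in fibroblasts, mural cells and VECs the AngII+HS level is at or below that of T and B cells.

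In fibroblasts 7 of 10 members were at least 2-fold higher in AngII+HS (background, 7.43% of 15880 genes) and 0 lower (8.39%). In mural cells 7 of 9 measured members were higher (8.8% of 15963 genes) and 0 lower (7.53%), and in VECs 6 of 9 higher (7.92% of 13153 genes) and 1 lower (5.92%). Of the members that were higher, other than *Ass1* in mural cells (0.735 and 1.83 CPM), only *Slc7a2* and *Nos2* in fibroblasts and *Nos2* in VECs stood above the AngII+HS T and B cell level. *Arg1* was at 14.1 to 14.8 CPM in these classes, against 26.9 CPM in T and B cells, and *Arg2*, *Acod1*, *Mrc1*, *Retnla* and *Chil3* also lay below the T and B cell level in each of them. At the level of classes these CPM values are not told apart from background. T and B cells had fewer UMIs per cell than these classes, and per cell the order was not always the same. For *Acod1* in AngII+HS, 1109 mural cells held 231 UMIs and 1117 T cells 135. For *Retnla*, 1204 VECs held 10 UMIs and the T cells 15. Which measure gives the free-RNA level was not tested. Within the mural cells, a cluster of 220 AngII+HS cells led by *Pln* and *Nrip2* was above the T and B cell level for *Arg2*, at 18.3 CPM (11.3 to 28.0) against 8.31 CPM (5.99 to 11.2), and at 56.7 CPM (43.8 to 72.3) against 41.0 CPM (35.6 to 46.9) for *Acod1*, where the intervals overlap.

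*Slc7a2* stood above that background in fibroblasts and mural cells. Control mural cells held 79.9% of the Control *Slc7a2* UMIs and AngII+HS fibroblasts 84.0% of the AngII+HS ones. These shares also depend on how many cells and UMIs each class had. By level, Control fibroblasts lay above Control mural cells. Neural cells were the highest Control class, at 140 CPM, and were at 121 CPM in AngII+HS. In fibroblasts it was at 72.9 CPM in Control and 314 CPM in AngII+HS, a log2 ratio of 2.11 (2.0 to 2.22), and it had a UMI in 16.8% and 44.0% of cells. The cluster led by *Dio2* and *F3* was at 102 and 267 CPM (1.38, 1.25 to 1.52), and the cluster led by *Ptx3* and *Sfrp4* at 37.0 and 165 CPM (2.16, 1.93 to 2.40). A cluster led by *Comp* and *Col11a1*, with 45 Control and 1044 AngII+HS cells, was at 241 CPM in AngII+HS. Mural cells were at 63.0 and 107 CPM, a log2 ratio of 0.76. Fibroblasts had a median of 3187 UMIs per cell in Control and 5120 in AngII+HS.

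A small fibroblast cluster of 196 AngII+HS cells and 0 Control cells, led by *Prg4* (lubricin) and *Mmp13* (a collagenase), stood apart. Its *Slc7a2* level was 1137 CPM (80.1% of cells). *Nos2* was at 81.7 CPM, from 238 UMIs in 34 cells (17.3%), which is 83.8% of the 284 *Nos2* UMIs of all AngII+HS fibroblasts. The 5 highest cells held 151 of these UMIs, and the highest alone 63. *Ass1* was at 81.7 CPM, in 87 cells (44.4%). The cells were deep, with a median of 14288.5 UMIs, and after thinning each cell to 1000 UMIs the share with *Nos2* was 6.22%. The summed macrophage markers (7 genes) were at 104 CPM in this cluster and at 112 to 149 CPM in the other AngII+HS fibroblast clusters, and the neutrophil markers (8 genes) at 192 CPM and 184 to 242 CPM.

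Detection of these 3 genes coincided in the *Prg4*/*Mmp13* cells. All 34 cells with *Nos2* had *Slc7a2* (100%, 89.7 to 100), against 75.9% (68.6 to 82.3) of the others. *Ass1* was found in 26 of the 34 (76.5%, 58.8 to 89.3), against 37.7% (30.2 to 45.6). Median depth was 15354 UMIs with and 13378 UMIs without *Nos2*, and *Odc1*, detected in 82.4% and 82.7%, did not separate them. *Arg1* (17.6% and 11.1%), *Mrc1* (11.8% and 3.70%) and *Arg2* (11.8% and 3.09%) were more frequent with *Nos2*, with overlapping intervals. The cluster also changed the fibroblast totals. For *Slc7a2* the fibroblast log2 ratio of 2.11 became 1.58 (1.47 to 1.70) without it. *Nos2* in fibroblasts was at 0.817 CPM in Control and 10.1 CPM in AngII+HS, a log2 ratio of 3.63, and without the cluster 1.16 (0.06 to 2.45). *Ass1* was at 11.2 and 14.4 CPM, a log2 ratio of 0.36, and without the cluster the ratio reversed to -0.75 (-1.11 to -0.39). The *Comp*/*Col11a1* cluster had *Nos2* in 0 of 1044 AngII+HS cells (upper limit 0.287% at 3 counts).

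In VECs, *Ass1* and *Slc7a2* were lower in AngII+HS. *Ass1*, which supplies arginine to the endothelial nitric oxide synthase, was at 55.4 CPM in Control and 15.5 CPM in AngII+HS, a log2 ratio of -1.84 (-2.19 to -1.49). The direction was the same in the cluster led by *Cytl1* and *Gja5*, at 78.4 and 27.7 CPM (-1.50, -1.94 to -1.08), and in the cluster led by *Fabp4* and *Gpihbp1*, at 19.96 and 8.77 CPM (-1.19, -1.91 to -0.46). All 4 levels lay above those of mural cells (0.735 and 1.83 CPM). *Slc7a2* was at 19.2 and 10.7 CPM, a log2 ratio of -0.85 (-1.33 to -0.36). It was lower in the *Cytl1*/*Gja5* cluster, at 28.2 and 13.6 CPM (-1.05, -1.71 to -0.42), but at 5.28 and 9.03 CPM in the *Fabp4*/*Gpihbp1* cluster (0.77, -0.31 to 2.01). T and B cells were at 3.12 and 8.71 CPM for *Slc7a2*. The AngII+HS levels of pooled VECs and of the *Fabp4*/*Gpihbp1* cluster were thus close, in CPM, to the T and B cell level. *Nos2* in VECs was nearly all in the *Fabp4*/*Gpihbp1* cluster, at 11.2 CPM in Control and 16.3 CPM in AngII+HS (0.55, -0.21 to 1.37), against 0.381 and 0.454 CPM in the *Cytl1*/*Gja5* cluster. The pooled VEC ratio of *Nos2*, 4.62 to 10.7 CPM or 1.21 on the log2 scale, is thus larger than in either cluster, and the *Fabp4*/*Gpihbp1* cluster made up 342 of 838 Control and 806 of 1204 AngII+HS VECs.

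*Arg1* and *Mrc1* were then compared cell by cell in the 4339 AngII+HS macrophages. *Mrc1* was detected in 508 of the 1974 cells with *Arg1* (25.7%, 23.8 to 27.7) and in 55.7% (53.7 to 57.7) of the cells without it. The median depth ranged between 3004 and 4996.5 UMIs over classes of *Arg1* count. Thinned to 1000 UMIs per cell, the shares were 8.89% and 32.9%. In the lymphocytes of that library they were 2.31% and 1.52%. Of the 439 Control macrophages, 400 had *Mrc1* and 0 had *Arg1*, so no such comparison could be made there.

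Inside clusters the shares lay closer together. Among *Cxcl3*/*Fn1* cells *Mrc1* was detected in 16.7% (14.7 to 18.9) of those with *Arg1* and 17.3% (10.7 to 25.7) of those without. The same shares were 31.9% and 26.5% in the *Ppbp*/*Rnf128* cluster, 30.7% and 28.3% in the *Irf7*/*Ly6c2* cluster and 91.1% and 86.6% in resident-like cells. In each of these clusters the intervals overlapped. Monocyte-like cells were an exception in the other direction, with *Mrc1* in 11 of 38 cells with *Arg1* (28.9%, 15.4 to 45.9) and in 6.73% (2.75 to 13.4) of the others, although after thinning the shares were 8.33% (1.03 to 27.0) and 3.39% (0.931 to 8.45).

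**Figure D4:**
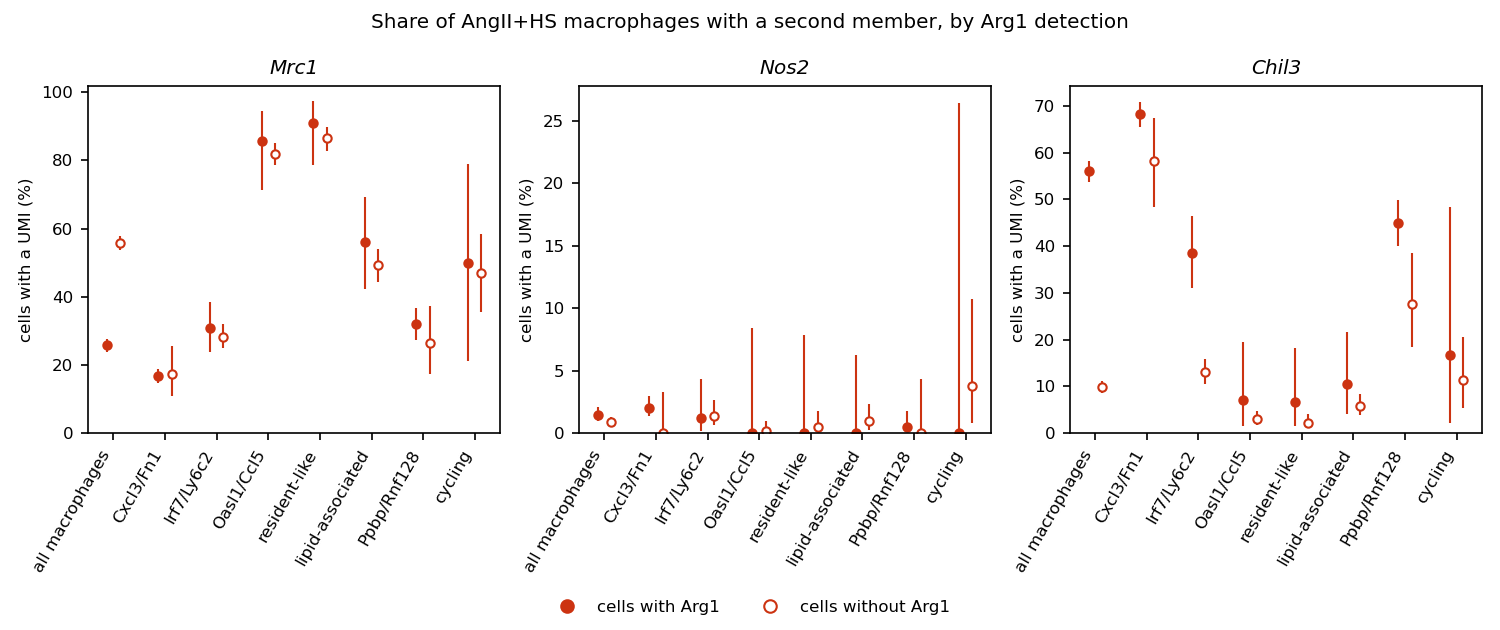
Share of AngII+HS macrophages with *Mrc1*, *Nos2* or *Chil3* (y axes, %) among cells with *Arg1* (filled) and without *Arg1* (open), over all macrophages and within each cluster; bars are 95% Clopper-Pearson intervals. For *Mrc1* the shares over all macrophages are 25.7% and 55.7%, while within every cluster drawn the intervals of the filled and open points overlap.

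*Nos2* was detected in 49 AngII+HS macrophages in all. It was in 29 of the 1974 cells with *Arg1* (1.47%, 0.986 to 2.10) and in 0.846% (0.517 to 1.30) of the others, and these intervals overlap. Among the 618 cells with 20 or more *Arg1* UMIs it was in 2.91% (1.74 to 4.56), an interval that lies above that of the cells without *Arg1*. In the *Cxcl3*/*Fn1* cluster 25 of 1233 cells with *Arg1* had *Nos2* (2.03%, 1.32 to 2.98), and 0 of the 110 cells without *Arg1* did, which allows up to 2.73% at 3 counts. Thinned to 1000 UMIs per cell, *Nos2* was in 0.635% (0.305 to 1.16) of the cells with *Arg1* and 0.192% (0.0625 to 0.449) of the others. In the Control library 1 macrophage had *Nos2*.

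*Chil3* went with *Arg1*. It was found in 56.0% (53.8 to 58.2) of the macrophages with *Arg1* and 9.81% (8.64 to 11.1) of the others, or 39.7% and 6.50% after thinning. The gap held in the *Irf7*/*Ly6c2* cluster, at 38.6% (31.1 to 46.4) and 13.1% (10.6 to 15.9), and in the *Ppbp*/*Rnf128* cluster, at 44.9% (40.1 to 49.9) and 27.7% (18.4 to 38.6). In the *Cxcl3*/*Fn1* cluster it was 68.2% (65.5 to 70.8) and 58.2% (48.4 to 67.5), with overlapping intervals. *Arg2* (49.0% and 16.8%), *Acod1* (46.5% and 23.7%) and *Slc7a2* (8.05% and 4.57%) were also more frequent among cells with *Arg1*, *Ass1* (5.37% and 11%) and *Retnla* (1.77% and 3.64%) less frequent, and *Odc1* (54.3% and 51.8%) was close.

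With increasing *Arg1* count the shares with *Mrc1* and *Chil3* changed most at low counts. *Mrc1* was in 55.7% of the 2365 cells with 0 *Arg1* UMIs, in 49.7% of the 294 cells with 1, in 23.8% of the 265 cells with 2 to 4 and in 21.5% of the 618 cells with 20 or more. *Chil3* was in 9.81%, 26.9%, 52.8% and 62.9% of the same cells. *Nos2* was in 0.846%, 0.340%, 0.377% and 2.91% of them, with 0.303% at 5 to 9 UMIs and 1.71% (0.742 to 3.35) at 10 to 19.

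**Figure D5:**
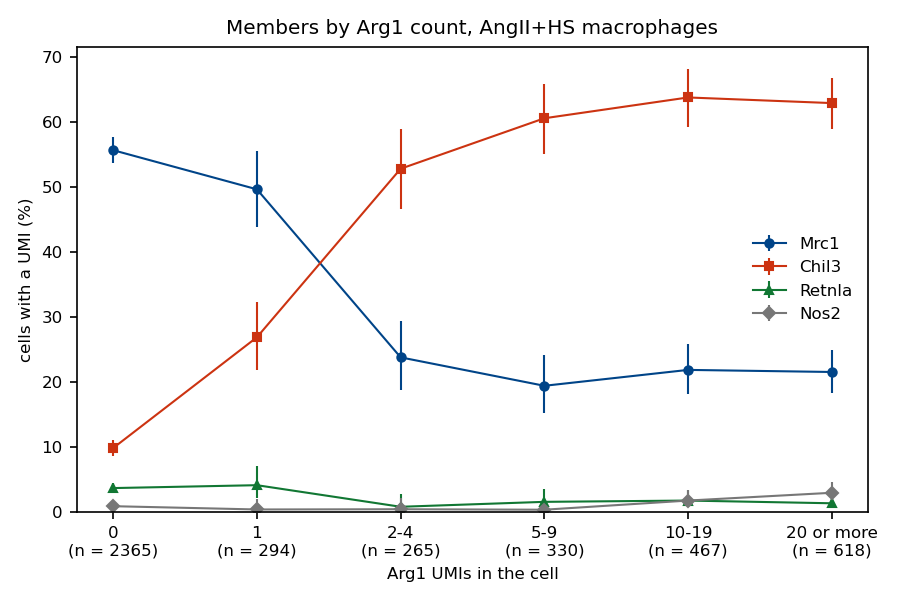
Share of AngII+HS macrophages with a UMI of *Mrc1*, *Chil3*, *Retnla* or *Nos2* (y axis, %) by the number of *Arg1* UMIs in the cell (x axis, with the number of cells), with 95% Clopper-Pearson intervals. *Mrc1* is at 55.7% at 0 *Arg1* UMIs and 23.8% at 2 to 4, while *Chil3* goes from 9.81% to 52.8%.

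Other genes of the arginine pathway were counted over the pooled macrophages, with 0.5 UMIs added. Of all 13643 genes counted the same way, 13.5% were at least 2-fold higher and 19.8% at least 2-fold lower. Of 4 other arginine transport genes 0 were past 2-fold, with a median log2 ratio of 0.06. Of 9 polyamine genes, only *Smox*, which oxidises spermine back to spermidine, was past 2-fold, at 53.0 CPM in Control and 225 CPM in AngII+HS, a log2 ratio of 2.09 (1.79 to 2.39), and the median was -0.29. Of the 3 measured urea cycle and arginine supply genes (6 in the list), *Asl*, the partner of *Ass1*, was higher by 1.05 (0.30 to 1.90) on the log2 scale. Of 2 measured genes of proline synthesis from ornithine 0 were past 2-fold. Among 7 measured genes of nitric oxide synthesis and its control 2 were higher and 1 lower, with *Pts*, an enzyme of the synthase's cofactor, at 1.42 (0.68 to 2.27), and a median of 0.15. The other higher one, *Nos3*, had 0 and 25 UMIs, and at the 3-count bound it is not shown to be past 2-fold, which leaves 1 and a median of 0.04.

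Genes known to answer IL-4 and IL-13 differed in both directions. Of 15, 7 were at least 2-fold higher (background, 13.5% of 13643 genes) and 5 at least 2-fold lower (background, 19.8%). Their median was 0.26 beside -0.11 over all genes. One of the 7, *Ccl17* (0 and 40 UMIs), does not pass at the 3-count bound, which leaves 6 and a median of 0.27. *Tgm2* (transglutaminase 2) was at 29.5 and 477 CPM (log2 ratio 4.02) and *Fn1* (fibronectin, also a monocyte marker here) at 191 and 1905 CPM (3.32). The scavenger receptor *Cd163*, also in the resident-like list, was at 644 and 45.4 CPM (-3.83), and the lectin *Mgl2* at 428 and 45.8 CPM (-3.22). Of the genes that were lower, *Cd163* (408 CPM), *Mgl2* (239.9 CPM) and *Clec10a* (604 CPM), like *Mrc1* and *Retnla*, had their highest AngII+HS macrophage level in resident-like cells. Control resident-like cells were at 864, 552 and 461 CPM for them, so *Clec10a* was not lower inside that cluster. *Fn1* was at 260 and 195 CPM there, the reverse of its pooled direction. It was at 4721 and 2906.5 CPM in the *Cxcl3*/*Fn1* and *Ppbp*/*Rnf128* clusters, which held 0 Control cells. Of 16 interferon and endotoxin response genes, 7 were at least 2-fold higher and 1 lower, beside the same background, with a median of 0.67. At the 3-count bound *Il12b* (0 and 31 UMIs) does not pass, which leaves 6 and a median of 0.38. *Il1b* was at 188 and 3206 CPM (4.09), *Fpr2*, a formyl peptide receptor, at 2.19 and 22.2 CPM (3.35) and *Ptgs2* (cyclooxygenase 2) at 217 and 1542 CPM (2.83). *Cxcl9* was at 2.19 and 12.4 CPM (2.50, 1.12 to 4.39), from 4 and 235 UMIs. The lower gene of this list was the costimulatory gene *Cd86*, at 1390 and 460 CPM (-1.59).

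Across 32 points (classes of at least 50 cells in a library), the genes whose log2(CPM + 1) went most closely with *Arg1* were *Ppbp* (Pearson r = 0.866), *Pgk1* (0.831) and *Spp1* (0.830). For *Arg2* they were *Gm5150* (0.980), *Trem1* (0.974) and *Sirpb1b* (0.968), for *Acod1* *Trem1* (0.956), *Clec4e* (0.953) and *Slfn4* (0.947), for *Mrc1* *Ccl12* (0.909), *C3ar1* (0.903) and *Cndp2*, and for *Retnla* *Folr2* (0.863), *Cd209b* and *Fcna*. The closest pairs of members were *Arg2* with *Acod1* (0.942), *Arg2* with *Chil3* (0.931) and *Acod1* with *Chil3* (0.895). *Mrc1* with *Retnla* was at 0.718 and *Arg1* with *Mrc1* at 0.306. The points share libraries and depth, and these values are a description.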

How the data were processed

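Suprarenal abdominal aortas of Control and AngII+HS mice gave 1 library each. The deposited values are raw UMI counts for each gene in each barcode, which the authors made with Cell Ranger (8.0.1 by the file header) and did not normalize. The study's methods name GRCm39, and the submitters' processing notes mm10. Of the gene IDs, 98.48% were in GENCODE vM39, which gave the coordinates. The promoters come from RefSeq.

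Cells needed 500 UMIs, 200 genes and a mitochondrial share under 20%, and Scrublet (scanpy 1.11.5) doublets were removed at 0.8% per 1000 cells. Integration used 2000 variable genes, with the members left out, and 30 components, and clusters were drawn at resolution 0.8 (R 4.3.3 with Seurat 5.3.0, Matrix 1.6.5 and SeuratObject 5.2.0). Phagocytes and neutrophils were clustered again with 20 components at resolution 0.6 and 0.4. Clusters were named after the highest-scoring marker list, with at least 3 markers in at least 10% of cells. The monocyte and macrophage lists both gave the name phagocyte. The cluster led by *Arg1*, *Ccl24* and *Cxcl3*, which scored highest for the monocyte list, was thus a phagocyte cluster. Subsets were named where the list scored at least 1 on the log2 scale and held 2 of the 10 leading genes. Other clusters are called by their leading genes, and phagocytes outside the monocyte-like subset were counted as macrophages. This naming rule was settled after the clusters had been seen. The members and the gene lists were chosen with earlier results of these data known.

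UMIs were summed per class and library. Ratios were given for genes with at least 20 UMIs, 0.5 UMIs were added for medians, and a class at 0 was set to 3 counts for a lower bound. Retained cells held 75294050 and 80581691 UMIs. With 1 library per condition no p-value was computed, and PCR or sampling of mice is not in the 95% intervals. On simulated data for the macrophage comparison, with 200 of 13643 genes changed 2-fold, 96.4% of the changed genes with a ratio had the right direction and 96.4% of the intervals held the true value. The simulated counts were drawn from the Poisson model that the intervals assume. They therefore check the calculation only, and UMIs concentrated in few cells, as for *Nos2* and *Retnla*, were not simulated. Named besides the members are the leading genes of clusters and the 3 genes closest to a member with at least 100 UMIs (among genes with at least 200). List genes past 2-fold with at least 200 UMIs are also named, at most 4 per list in order of size. *Cd86* was named although it is not among the first 4 of its list. *Clec10a*, *C1qa*, *Cd68*, *Adgre1*, *Csf1r*, *Gp9*, *Gp1bb*, *Vcan*, *Plac8*, *Nos3*, *Ccl17* and *Il12b* were added after their values were seen. Alternatives were no doublet removal, a stricter cell filter, members allowed in the clustering, merging without integration, resolutions 0.4 and 1.2, equal weight per cell, totals without mitochondrial genes, subtracting free RNA, thinning to 1000 or 500 UMIs, and at least 2 UMIs for detection. Python 3.11.15, numpy 2.4.6, scipy 1.17.1, pandas 2.3.3 and matplotlib 3.10.9 were used.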

Additional observations from a re-analysis of the deposited data

Results flagged for a closer look

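Macrophages and VECs differed in opposite directions between the libraries for 2 members with enough UMIs in both classes to be flagged. This difference was not tested, since each condition had 1 library. *Mrc1* also differed in opposite directions, at -2.27 in macrophages and 1.48 (0.40 to 2.72) in VECs. It had only 9 and 36 UMIs in VECs and was not flagged. The log2 ratio of *Slc7a2* was 2.18 (95% counting interval 1.29 to 3.25) in macrophages and -0.85 in VECs, a gap of 3.03. Within VECs it was -1.05 (-1.71 to -0.42) in the *Cytl1*/*Gja5* cluster and 0.77 (-0.31 to 2.01) in the *Fabp4*/*Gpihbp1* cluster, which held 342 of 838 Control and 806 of 1204 AngII+HS VECs. That of *Ass1* was 3.66 (2.29 to 5.54) in macrophages and -1.84 (-2.19 to -1.49) in VECs, a gap of 5.49. The macrophage values rest on 10 Control UMIs of *Slc7a2* and 4 of *Ass1*. The AngII+HS level of *Slc7a2* was 10.7 CPM in VECs, close to 8.71 CPM in T and B cells. The AngII+HS level of *Ass1* was 27.5 CPM in macrophages and 1.77 CPM in neutrophils, 1 of the lowest classes.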

How the results depend on the processing

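No paired analysis was possible because each condition had 1 library. All 88 recomputed ratios of the members in macrophages kept their direction under the alternatives chosen at the start, and 87 stayed past 2-fold; the exception was *Nos2* at resolution 1.2, with a lower bound of 0.46. *Arg1* had a lower bound of 9.84 without doublet removal and 9.05 at resolution 1.2, where the macrophages were 200 Control and 3721 AngII+HS cells. *Mrc1* was at -2.34 without doublet removal, -2.69 at resolution 1.2 and -2.05 with equal weight per cell. *Retnla* was at -4.98 at resolution 1.2 and -3.31 merged without integration, and *Acod1* at 2.07 at resolution 1.2. Without the *Cxcl3*/*Fn1* and *Ppbp*/*Rnf128* clusters, an alternative chosen after seeing the data, the *Arg1* bound was 6.25 and *Mrc1* -1.73. The share of AngII+HS macrophages with *Arg1* was 51.3% at resolution 1.2, 37.7% and 31.8% thinned to 1000 and 500 UMIs, and 38.7% with at least 2 UMIs. *Mrc1* among the cells with *Arg1* was 23.4%, 8.89%, 4.28% and 11.2% under the same settings, and *Nos2* was 0.635%, 0.435% and 0.774% under the settings of thinning and of 2 UMIs. Thinning and the 2-UMI rule lower detection by construction; the cause of the other shifts was not tested. *Ass1* in fibroblasts reversed to -0.75 without the *Prg4*/*Mmp13* cluster, also chosen after seeing the data. *Nos2* and *Slc7a2* in fibroblasts moved to 1.16 and 1.58 in that setting. Subtracting the T and B cell level gave no value for *Ass1* and *Odc1* in macrophages. In AngII+HS, T and B cells hold *Ass1* at the same level and *Odc1* at a higher one, 840 CPM against 493 CPM. Among macrophages, neutrophils, fibroblasts, mural cells, VECs, T cells and B cells, 3 members had their highest AngII+HS level in macrophages, under all alternatives run. A value counted as moved when it left the counting interval of the main setting. A lower bound has no interval and was judged by a small fixed limit. The main results were the macrophage levels of *Arg1* and *Mrc1*, the AngII+HS shares with *Arg1*, *Mrc1* and *Nos2* above, and the count of 3 members. Of their recomputed values 18 moved and 38 did not. Of the other values 36 moved, 1 reversed and 89 did not move. Rare members are limited by depth, above all *Nos2* with 82 UMIs in AngII+HS macrophages.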
